A study of Mus musculus with 30 samples.

Results

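The genes described here are 9 transcription factor genes that neuronal activity induces within minutes, Npas4, Nr4a1, Nr4a2, Nr4a3, Fos, Fosb, Fosl2, Junb and Egr1, and Arc, which encodes a synaptic protein induced by the same signals. They are 10 of the 38720 gene symbols listed in each of the deposited tables, and all 10 were found in both. The set was chosen by measured values, namely the large differences of Nr4a3, Fosl2 and Npas4 between mutant and wild type (WT) cells, so values of that comparison are given for these genes as a description. How many of them the fit across all genes calls is given beside the share over all genes, and supports nothing. The comparison of the cell fractions was not the stated ground of the choice and is tested. It shares the mutant RGC libraries with the first comparison, and earlier results of these data were known when the genes were chosen.

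Retinas of mouse pups at postnatal day 0 were digested with papain. Magnetic beads against CD90 then captured the retinal ganglion cells (RGCs), which carry the output of the retina to the brain. The cells not captured, pooled, are the non-RGC fraction. Poly(A) RNA was sequenced in triplicate for each of 3 groups used here, WT RGCs from C57BL/6 mice, mutant RGCs and the mutant non-RGC fraction, 9 libraries in all. The labels hold 2 mutant genotypes, Math5Cre; Ezh2f/f and Math5Cre; Ezh2f/fG9af/+, and the tables say only "mut", so both groups called mutant below share floxed Ezh2 on both alleles and a Cre recombinase under Math5 control, with or without 1 floxed copy of G9a. Ezh2 and G9a (Ehmt2) are histone methyltransferases that repress genes, and Math5 (Atoh7) is active in the progenitors that give rise to ganglion cells, so the Cre acts in that lineage and not in every retinal cell. The labels do not state that the 3 samples in a group were taken from different pups, and p-values therefore reflect only the scatter among the sequenced libraries, which may be technical.

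These genes need no new protein to be switched on. Calcium entry and growth factor signals act through kinases on the factors CREB, SRF and MEF2 that already sit at their promoters, so their RNA rises quickly and decays quickly. The proteins then act in families. Fos, Fosb and Fosl2 pair with Jun proteins such as Junb to form AP-1, the 3 Nr4a genes encode orphan nuclear receptors, Npas4 pairs with Arnt proteins, and Egr1 is a zinc finger factor. Dissociation of tissue can induce many of the same genes.

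The 9 libraries held between 10551825 and 12259494 reads. Their numbers, 1 to 3, follow the size factor in each group from the largest down and pair nothing across groups. Levels below are normalised counts, with all 9 libraries on 1 scale. Ezh2 had 1154, 1169 and 1576 normalised counts in WT RGC libraries 1 to 3 and 1962, 1863 and 1812 in the libraries labelled mutant RGC (log2 0.58, limma adjusted p = 0.0292). Its whole-gene level thus goes against the label, but transcripts without the floxed exons still count, so it does not test the deletion. All directions below are those of the libraries labelled mutant. Ehmt2 was at 3734 ± 127 in WT RGCs and 2708 ± 309 in mutant RGCs (SD, n = 3 each, log2 -0.43, limma adjusted p = 0.0332). The marker genes of the cell types differed between the groups and are given beside the results they touch.

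The promoters of these genes are shown because the genes share their inducing signals and because those of the genes that differed most can be set beside that of Fos, which differed little. Promoter windows of 250 bases before to 50 after an annotated start were matched for 8 of the 10 genes in RefSeq (GRCm38.p6). Those of Npas4 and Nr4a1 are at starts that lie inside the gene spans given below. No window was matched for Egr1 and Arc. They are written 5′ to 3′ on the gene's strand, with 3 motifs in capitals on either strand: the short cAMP response element TGACG, to which CREB binds, the EGR site GCGNGGGCG and the TATA letters TATAAA.

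Npas4, chr19:4989922-4990221, minus strand: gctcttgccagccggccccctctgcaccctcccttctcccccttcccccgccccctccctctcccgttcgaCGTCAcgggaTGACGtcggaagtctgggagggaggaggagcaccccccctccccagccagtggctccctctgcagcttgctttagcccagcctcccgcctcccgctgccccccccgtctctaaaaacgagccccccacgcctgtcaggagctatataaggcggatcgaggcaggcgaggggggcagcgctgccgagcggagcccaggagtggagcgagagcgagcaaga

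Nr4a3, chr4:48045055-48045354, plus strand: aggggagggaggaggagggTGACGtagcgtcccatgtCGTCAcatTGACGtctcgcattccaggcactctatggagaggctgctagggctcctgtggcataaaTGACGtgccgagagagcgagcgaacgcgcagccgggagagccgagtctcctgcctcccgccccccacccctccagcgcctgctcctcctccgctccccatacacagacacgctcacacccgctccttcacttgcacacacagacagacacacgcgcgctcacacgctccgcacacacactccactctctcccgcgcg

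Fosl2, chr5:32136222-32136521, plus strand: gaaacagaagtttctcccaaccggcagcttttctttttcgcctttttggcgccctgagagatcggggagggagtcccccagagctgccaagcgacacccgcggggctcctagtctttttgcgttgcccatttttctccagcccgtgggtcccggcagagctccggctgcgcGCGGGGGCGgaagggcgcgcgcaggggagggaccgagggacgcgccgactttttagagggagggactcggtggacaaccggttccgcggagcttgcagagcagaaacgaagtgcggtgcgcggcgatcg

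Nr4a1, chr15:101266596-101266895, plus strand: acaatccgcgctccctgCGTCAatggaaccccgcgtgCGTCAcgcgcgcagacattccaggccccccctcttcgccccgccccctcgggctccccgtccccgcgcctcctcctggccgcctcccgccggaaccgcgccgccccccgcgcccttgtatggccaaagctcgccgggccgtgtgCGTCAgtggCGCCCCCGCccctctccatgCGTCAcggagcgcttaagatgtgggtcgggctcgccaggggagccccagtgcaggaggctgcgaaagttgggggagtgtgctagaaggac

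Fos, chr12:85473640-85473939, plus strand: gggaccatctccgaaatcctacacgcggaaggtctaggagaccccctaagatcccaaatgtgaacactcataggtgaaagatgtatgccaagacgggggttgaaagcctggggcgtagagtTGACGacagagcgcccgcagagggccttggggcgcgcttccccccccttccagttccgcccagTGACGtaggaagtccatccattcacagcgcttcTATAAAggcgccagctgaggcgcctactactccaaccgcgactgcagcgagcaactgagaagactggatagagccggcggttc

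The short element TGACG stood in 7 of the 8 windows, and in 29.4% of the 14100 windows of tested genes. Nr4a1, Nr4a2 and Nr4a3 had 4 copies each, Npas4 and Fos 2 each, and Fosb and Junb 1 each. Of all tested windows, 1.96% held 3 or more. Fosl2 had none in its window. An EGR site stood in the windows of Nr4a1, Nr4a2, Fosb and Fosl2, 4 of 8, against 10.3% of tested windows. The full element TGACGTCA, the AP-1 site TGANTCA, the CArG box to which SRF binds and the Nr4a site AAAGGTCA were in none of the 8 windows, against 2.94%, 4.91%, 1.33% and 0.972% of tested windows. These are matches of letters in a short window and not measured binding, and the short element lies within the full one.

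In mutant RGCs 4 of the 10 genes, Npas4, Nr4a1, Nr4a3 and Fosl2, stood between 3.16-fold and 9.69-fold below WT RGCs, and the other 6 differed by at most 1.36-fold. Over all 10 genes the median log2 difference was -0.39, against 0.004 over the 15276 genes tested. The 4 genes lay lower in each mutant library than in any WT library.

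**Figure D1:**
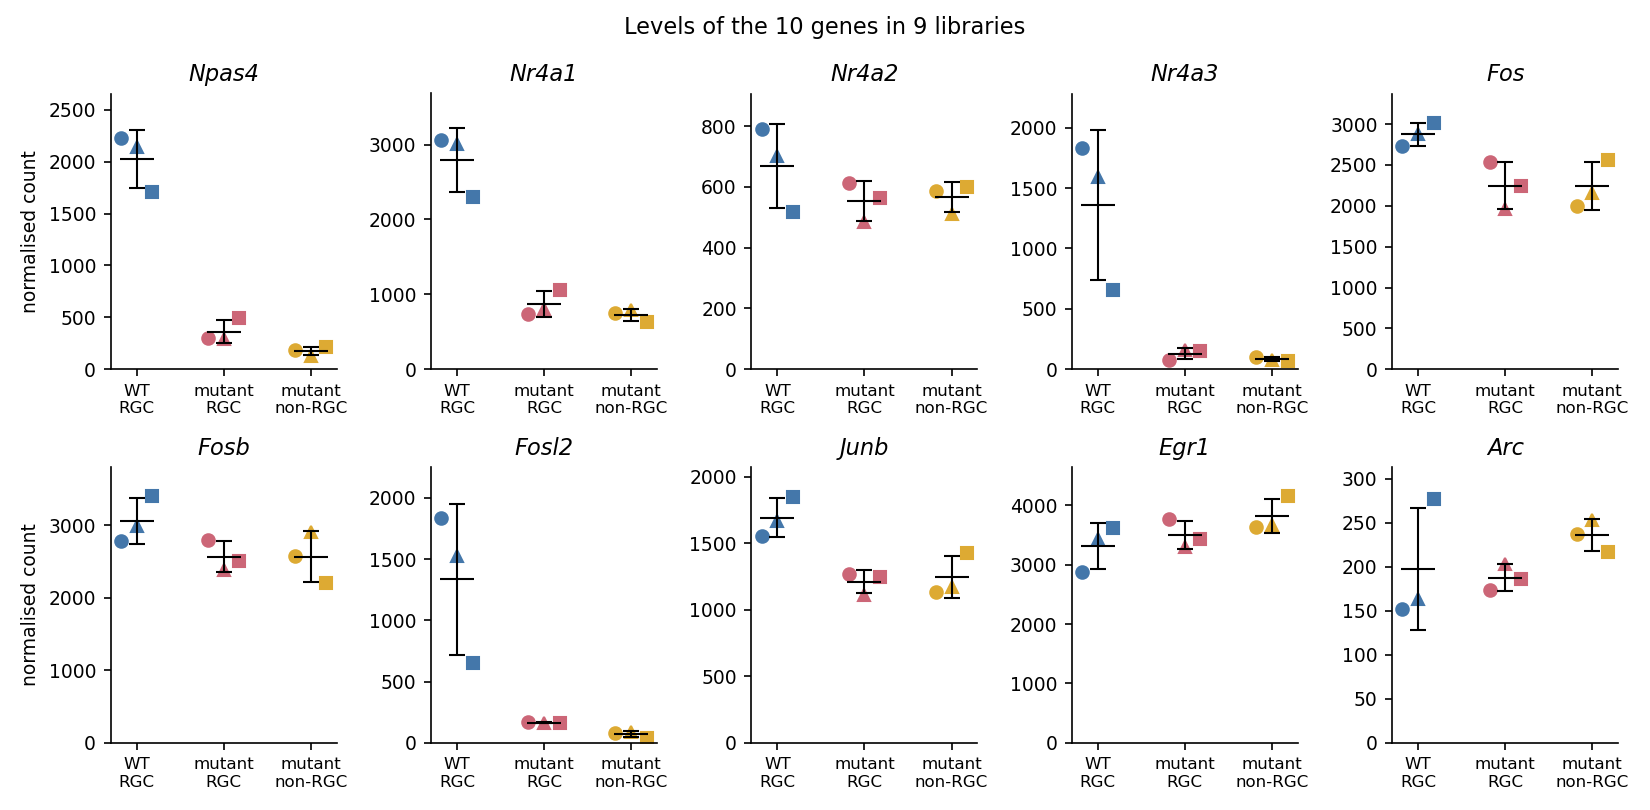
Normalised counts (vertical axes, each from 0) of the 10 genes in the 3 libraries of WT RGCs (blue), mutant RGCs (red) and mutant non-RGC cells (yellow). Circles, triangles and squares are libraries 1, 2 and 3, and bars give the mean and SD. For Npas4, Nr4a1, Nr4a3 and Fosl2 the mutant libraries lie far below WT, and WT library 3 lies below the other WT libraries.

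Npas4 (chromosome 19, 4984353 to 5003439, GRCm38) encodes a neuron-specific bHLH-PAS factor that answers to calcium entry. WT RGC libraries 1 to 3 had 2226, 2146 and 1704 normalised counts, mutant RGC libraries 303.5, 292 and 495, and mutant non-RGC libraries 184, 131 and 215. The 3 groups did not overlap, with WT RGCs highest and non-RGC cells lowest. Mutant RGCs were 5.55-fold below WT (log2 -2.47, SE 0.22).

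The orphan nuclear receptors Nr4a1 (Nur77), Nr4a2 (Nurr1) and Nr4a3 (Nor1) differed by unequal amounts. Nr4a3 (chromosome 4, 48045078 to 48086447) had 1832, 1589 and 659 normalised counts in WT RGC libraries 1 to 3, 78.7, 161 and 151 in mutant RGCs and 102, 78.4 and 66.8 in mutant non-RGC cells. It was 9.69-fold lower in mutant than in WT RGCs (log2 -3.28, SE 0.45), the largest difference of the 10 genes, and even WT library 3, at 659, lay above every mutant library. Nr4a1 (chromosome 15, 101253902 to 101274795) had 3064, 3013 and 2305.5 in WT, 734, 804 and 1061 in mutant RGCs and 758, 787 and 638 in non-RGC cells. Its mutant RGC and non-RGC values overlapped and both lay below WT, with a 3.16-fold difference between the RGC groups (log2 -1.66, SE 0.17). Nr4a2 (chromosome 2, 57106830 to 57124003), which also marks dopaminergic neurons, had 789, 702 and 517 in WT, 613, 483 and 563 in mutant RGCs and 588, 509 and 600 in non-RGC cells. All 3 groups overlapped, and the log2 difference between the RGC groups was -0.23 (SE 0.17).

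Among the AP-1 genes only Fosl2 differed by more than 2-fold between the RGC groups. Fosl2 (Fra-2, chromosome 5, 32136472 to 32157840), a Fos relative that accumulates later than Fos, had 1837, 1524 and 649 normalised counts in WT libraries 1 to 3, 171, 161 and 164.5 in mutant RGCs and 80.8, 91.0 and 42.2 in non-RGC cells. The groups did not overlap, and mutant RGCs were 7.17-fold below WT (log2 -2.84, SE 0.36). Fos (chromosome 12, 85473890 to 85477274) had 2735, 2876 and 3014 in WT, 2534, 1958 and 2247 in mutant RGCs and 2004, 2153 and 2567 in non-RGC cells, so WT lay above both mutant fractions by a small margin (log2 -0.33, SE 0.09, mutant against WT RGCs). Fosb (chromosome 7, 19302696 to 19310118) had 2777, 2989 and 3396 in WT and 2801, 2384 and 2511 in mutant RGCs, which overlapped (log2 -0.22, SE 0.09), and 2578, 2908 and 2208 in non-RGC cells. Junb (chromosome 8, 84976909 to 84978748), the Jun partner in the set, had 1558, 1667 and 1846 in WT, 1271, 1110 and 1248 in mutant RGCs and 1134, 1174 and 1425 in non-RGC cells, again with WT highest and no overlap with mutant RGCs (log2 -0.45, SE 0.09).

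Egr1 (Zif268) and Arc, both used as marks of recently active neurons, showed no separation of WT from mutant RGCs. Egr1 had 2872, 3435 and 3619 normalised counts in WT, 3761, 3301 and 3429 in mutant RGCs and 3642, 3668 and 4159 in non-RGC cells (log2 0.12, SE 0.10, mutant against WT RGCs). Arc (chromosome 15, 74669081 to 74672570), whose product regulates glutamate receptors at synapses, had 152, 163 and 277 in WT, 173, 203 and 186 in mutant RGCs and 238, 253 and 217 in non-RGC cells. Its log2 difference was 0.01 (SE 0.25, 95% interval -0.58 to 0.59) and turned to -0.01 with upper-quartile scaling.

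Limma called 6 of the 10 genes lower in mutant RGCs, namely Npas4, Nr4a1, Nr4a3, Fosl2, Fos and Junb, and none higher, where it called 12.3% of all tested genes lower and 13.7% higher at an adjusted p under 0.05. The same 6 genes lay lower without overlap between the groups, and none lay higher, against 24.9% and 26.2% of all tested genes. In the authors' deposited table Fos is not called and the other 5 are, where that table calls 6.48% of genes lower and 5.45% higher. Since the genes were chosen on this comparison, nothing is read from these counts. The count stayed at 6 without WT library 3 and without library 1 of the mutant RGCs. Limma called none of the 10 genes without WT library 1, without WT library 2 or without library 2 of the mutant RGCs, and 2 genes without library 3 of the mutant RGCs, when between 3 and 9 genes of the whole table were called.

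WT library 3 stood apart in opposite ways for different members. It had the lowest WT value for Npas4, Nr4a1, Nr4a2, Nr4a3 and Fosl2, and the highest WT value for Fos, Fosb, Junb, Egr1 and Arc. Without WT library 3 the log2 difference of Nr4a3 between mutant and WT RGCs was -3.73, that of Fosl2 -3.29, that of Npas4 -2.59 and that of Arc 0.28.

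Cell type markers also differed between the RGC groups. Of 20 ganglion cell markers 8 fell in mutant RGCs and none rose, and their summed level was between 45903 and 54260 in WT RGC libraries, between 22546 and 35963 in mutant RGCs and between 8095 and 14498 in non-RGC cells. Thy1, which encodes CD90, was at 2279 ± 188, 1297 ± 290 and 190 ± 171 (SD, n = 3 each), and the ganglion cell factor gene Pou4f2 at 2707 ± 358, 1492 ± 504.5 and 287 ± 240.5. Of 19 proliferation and progenitor markers 10 rose and none fell, with sums between 25333 and 38856 in WT, where the highest was WT library 3, and between 41923 and 44589 in mutant RGCs. The proliferation gene Mki67 was at 3230 ± 1007 in WT and 5364 ± 676.5 in mutant RGCs (SD, n = 3 each). Photoreceptor markers (6 of 11 rose, none fell) and amacrine and horizontal cell markers (6 of 10 rose, none fell) were higher in mutant RGCs as well. Limma called 12.3% of all tested genes lower and 13.7% higher. With 1 library left out, the calls ran from 0 to 15 for ganglion cell markers and from 0 to 17 for proliferation markers. For photoreceptor markers they ran from 0 to 8, and for amacrine and horizontal cell markers from 0 to 7. Of 10 endothelial and pericyte markers 1 rose, and none of 4 tested astrocyte markers passed. In these bulk libraries fewer cells of a type and less RNA per cell cannot be told apart, and the part of these differences in cell makeup in the values of the 10 genes was not tested.

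**Figure D2:**
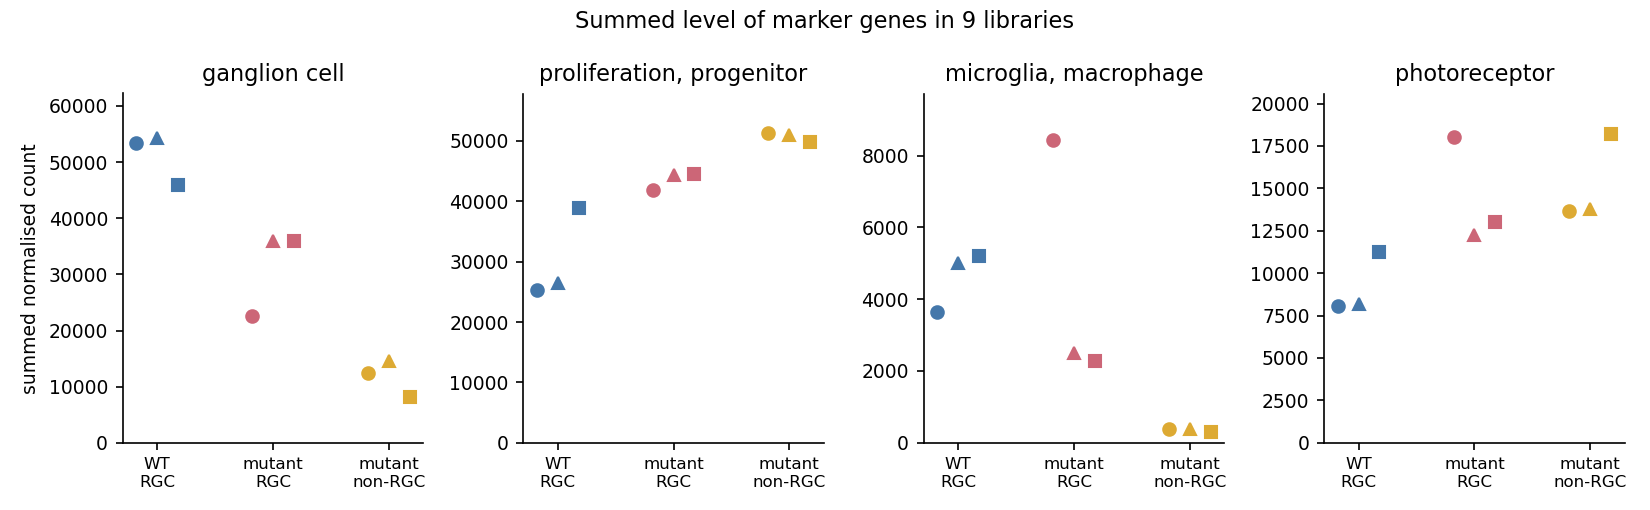
Summed normalised counts (vertical axes, each from 0) of the markers of ganglion cells, proliferating and progenitor cells, microglia and macrophages, and photoreceptors in each library, with colours and symbols for groups and libraries as in the plot of the 10 genes. Ganglion cell markers fall from WT RGCs to mutant RGCs to non-RGC cells, and the microglia sum of mutant RGC library 1 stands at 8439.

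None of the 14 microglia and macrophage markers passed the test between the RGC groups in limma (0 at an unadjusted p under 0.05), and their sum was between 3635 and 5205 in WT and at 8439, 2504 and 2276 in mutant RGC libraries 1 to 3. With 1 library left out, between 0 and 9 of the 14 were called lower in mutant RGCs and 0 higher. Mutant RGC library 1 stood apart in several marker lists. Beside the highest microglial sum of the mutant RGCs it had the lowest ganglion cell sum, 22546 against 35963 and 35917, and the highest endothelial sum, 9770 against 5410 and 5587, and photoreceptor sum, 18041 against 12247 and 12992. Of the 10 genes in the mutant RGCs, this library had the lowest Nr4a1 (734), Nr4a3 (78.7) and Arc (173) and the highest Nr4a2 (613), Fos (2534), Fosb (2801), Fosl2 (171), Junb (1271) and Egr1 (3761). In non-RGC cells the microglial sum was between 309 and 386 and Cx3cr1, a defining microglial gene, had 2 reads in each library. The part of these cell types in the values of the 10 genes was not tested.

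The 10 genes differed in how densely reads covered them. Duplicates were removed before counting, as the names of the deposited tables show, and with single reads this limits how many reads a short gene can keep. Egr1 had between 0.779 and 1.08 reads per base of its annotated span, introns included, Junb between 0.641 and 0.916, Fos between 0.615 and 0.822 and Fosb between 0.289 and 0.417. Nr4a3, Fosl2, Npas4 and Nr4a1, with spans of 19087 to 41370 bases, had at most 0.149, and a long span lowers this value by itself. For Npas4 and Nr4a1 the promoter windows lie wholly inside the span. Part of each span thus lies before the start shown, which lowers their values further against those of the short genes. At least 0.5 reads per base in every library were seen for 55 tested genes, with Fos, Junb and Egr1 among them. Between the RGC groups 0.00% of these 55 differed by over 2-fold and 5.45% were called, which is 3 genes with Fos and Junb among them. The shares over all tested genes were 10.4% and 26.0%. The part of duplicate removal in the differences of the 10 genes was not tested. Arc and Nr4a2, with at most 0.0748 and 0.0468 reads per base, varied by 1.82-fold and 1.63-fold between their lowest and highest libraries.

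**Figure D3:**
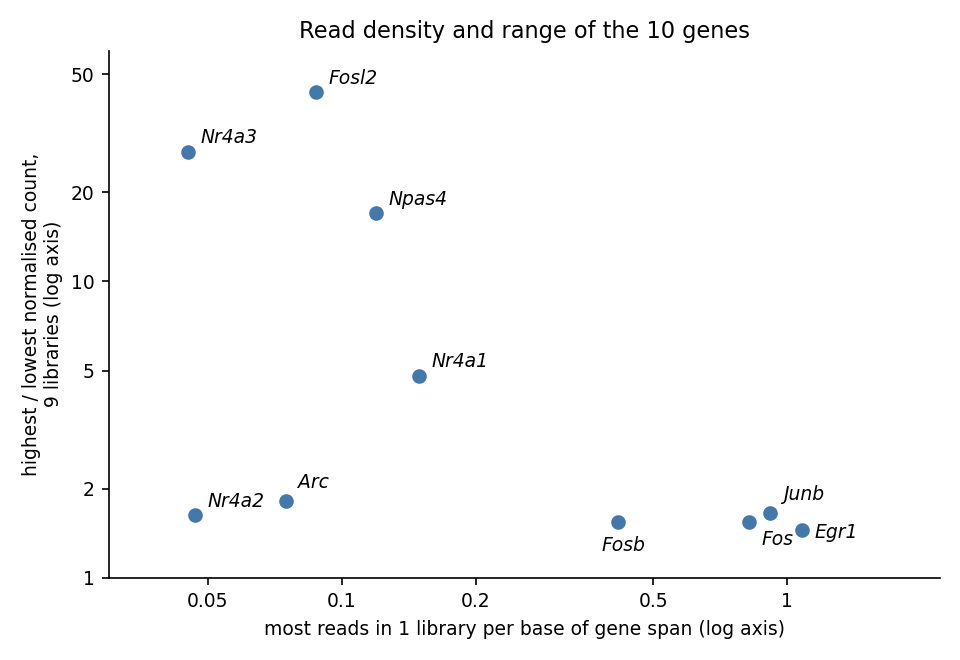
Ratio of the highest to the lowest normalised count over the 9 libraries (vertical, log axis) against the most reads in any library per base of annotated gene span (horizontal, log axis), 1 point per gene. Fos, Fosb, Junb and Egr1 lie at the right with ratios of at most 1.66, while Fosl2, Nr4a3 and Npas4 reach 43.6, 27.4 and 17.0 at low density. The spans of Npas4 and Nr4a1 include bases before the starts of their promoter windows, which lowers their density.

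Between the mutant fractions, which ask how the bead selection divided the RNA of these genes, Npas4 and Fosl2 fell from RGCs to non-RGC cells and none of the 10 rose. Npas4 was 2.04-fold lower in non-RGC cells (log2 -1.03, SE 0.26, limma adjusted p = 0.0356) and Fosl2 2.42-fold lower (log2 -1.28, SE 0.29, limma adjusted p = 0.0248), each in 3 of 3 libraries below all RGC libraries. Limma called 12% of all 15178 tested genes lower and 5.07% higher, beside which stand 2 and 0 of the 10. Both called genes are among those for whose differences between mutant and WT RGCs the set was chosen. The median log2 difference of the 10 genes was -0.006 and that of all tested genes 0.013. Neither gene was called without mutant RGC library 2 or 3 or without non-RGC library 1, and Npas4 also not without non-RGC library 2. Over all removals of 1 library the log2 difference was between -1.18 and -0.78 for Npas4 and between -1.49 and -0.94 for Fosl2. Calls over all genes went from 2590 to 595 and 621 without mutant RGC library 2 or 3 and to 438 without non-RGC library 1. In the authors' deposited table Fosl2 passes (adjusted p = 4.611e-05) and Npas4 does not (adjusted p = 0.0923), in a table that calls 5.31% of genes lower and 1.17% higher.

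The other 8 genes did not pass between the fractions. Nr4a3 had a log2 difference of -0.61 (95% interval -1.35 to 0.13, limma adjusted p = 0.2345), and without mutant RGC library 1, its lowest RGC library, it was called at -0.95 (limma adjusted p = 0.02247). Nr4a1 stood at -0.24 (-0.60 to 0.12) and Nr4a2 at 0.03 (-0.22 to 0.29). Fos, Fosb and Junb lay within 0.04 of 0 on the log2 scale, with intervals from -0.27 to 0.26, -0.26 to 0.24 and -0.20 to 0.27. Egr1 stood at 0.13 (-0.04 to 0.29). Arc was the member highest in non-RGC cells, at 0.33 (0.03 to 0.62, limma adjusted p = 0.1183), higher in 3 of 3 non-RGC libraries than in any mutant RGC library. It was the 1 member higher without overlap, against 17.1% of all genes, and Npas4 and Fosl2 were the 2 lower without overlap, against 20.6%. Between the same fractions 12 of 20 ganglion cell markers, 13 of 14 microglia and macrophage markers and 1 of 11 photoreceptor markers fell in non-RGC cells, 6 of 19 proliferation and progenitor markers and 1 of 10 amacrine and horizontal cell markers rose, and no endothelial or astrocyte marker passed in limma (0 of each at an unadjusted p under 0.05). Their part in the values of the 10 genes was not tested. The mutant RGC libraries serve in both comparisons, so the values of the comparisons are not independent.

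**Figure D4:**
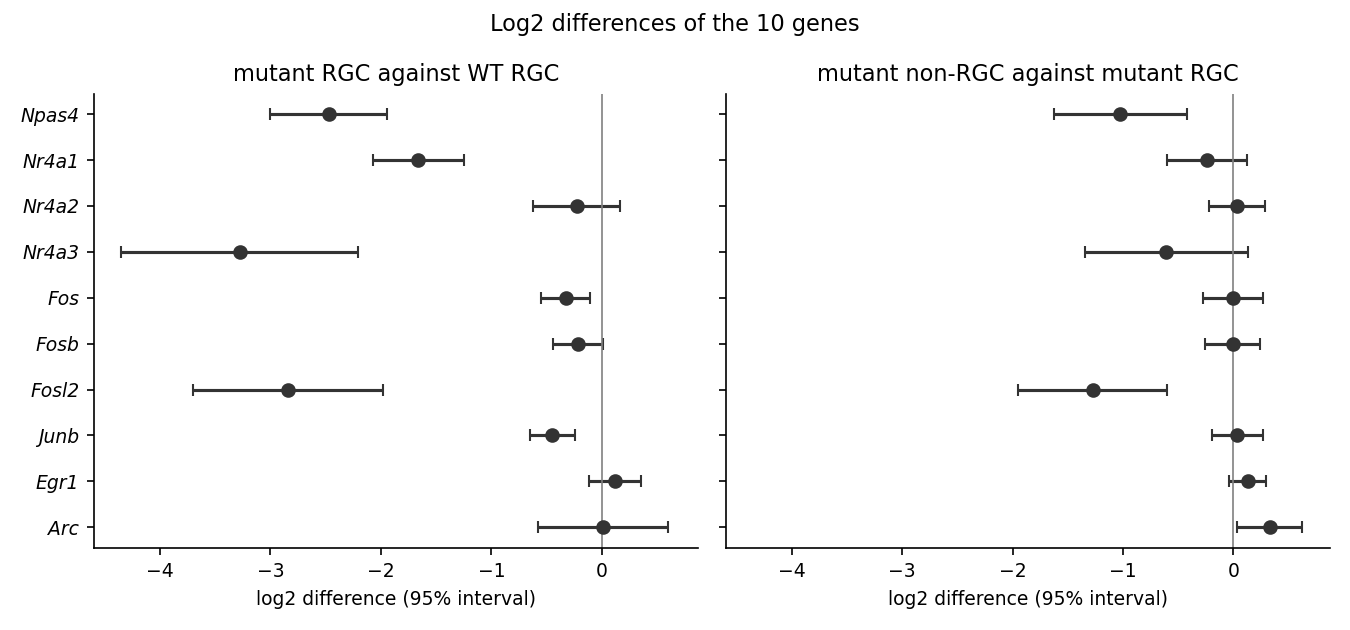
Log2 differences of the 10 genes with 95% intervals from limma, for mutant against WT RGCs (left) and mutant non-RGC cells against mutant RGCs (right), on the same horizontal axis. Nr4a3, Fosl2, Npas4 and Nr4a1 lie between -3.28 and -1.66 at the left, and Fosl2 and Npas4 at -1.28 and -1.03 at the right.

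Of 24 further activity-induced transcription regulators 8 fell in mutant RGCs, 1 rose and 15 did not pass, with a median log2 difference of -0.31. Over all genes tested 12.3% fell and 13.7% rose, the shares beside which the counts of this and the next lists stand. The lists were chosen with earlier results of these data known, so nothing is read from their counts in either comparison. Bhlhe40, a clock-related repressor, fell to 114 ± 3.84 normalised counts in mutant RGCs, against 255 ± 57.8 in WT RGCs (SD, n = 3 per group, log2 -1.10, limma adjusted p = 0.0238), and Cebpb, a factor of inflammatory and stress responses, fell likewise, with 247 ± 24.8 and 101 ± 36.1 (log2 -1.30, limma adjusted p = 0.0244). The proto-oncogene Myc fell by 0.99, Csrnp1 by 0.88, the small Maf gene Maff by 0.81, the zinc finger gene Egr4 by 0.68 and Nfil3 by 0.33 on the log2 scale. Nab2, which encodes a corepressor of Egr proteins, rose by 0.60. The closest relatives of the members, Jun (-0.10), Jund (-0.10), Fosl1 (-0.47), Egr2 (0.10) and Egr3 (0.06), did not pass. Klf6 (-0.29) completes the 8 that fell, and it and the relatives were named after their values were seen.

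Among 30 effector genes that the induced factors or the same signals switch on, 29 were tested, 14 fell, 2 rose and 13 did not pass (median log2 difference -0.35). Gadd45b, which takes part in DNA demethylation and stress responses, fell from 294 ± 21.6 to 108 ± 6.30 (SD, n = 3 each; log2 -1.41, limma adjusted p = 0.0127). Sik1, a kinase that restrains CREB coactivators, fell from 2519 ± 387 to 1029 ± 128 (log2 -1.25, limma adjusted p = 0.0215). Bdnf, which encodes the neurotrophin BDNF, fell from 440 ± 136 to 132 ± 33.3 (log2 -1.68, limma adjusted p = 0.0244), with WT library 3 lowest of WT at 296. The cyclooxygenase gene Ptgs2 fell by 1.80, the neuronal pentraxin gene Nptx2 by 0.91, the polo-like kinase genes Plk2 and Plk3 by 0.91 and 0.69, and the cell cycle inhibitor gene Cdkn1a by 0.85. The 2 that rose, named after their values were seen, were Dusp6 (0.50), a phosphatase that switches off ERK, and Trib1 (0.36). Between the fractions 7 effectors were lower in non-RGC cells and none higher. They were Pcsk1 (log2 -2.37, limma adjusted p = 0.0131), Homer1 (-0.42), Vgf (-1.52), Sik1 (-0.50), Bdnf (-1.17), Nrn1 (-3.17) and Plk2 (-0.41). Among the 24 regulators limma called none between the fractions, with 5 at an unadjusted p under 0.05. Voom weights and the authors' deposited table called none either, but with upper-quartile scaling 3 were called higher and with total-count scaling 4.

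Of 35 genes of the calcium, MAP kinase and CREB, SRF and MEF2 pathway that precede induction, 8 fell in mutant RGCs, none rose and 27 did not pass (median log2 difference -0.20). They were the NMDA receptor genes Grin1 (-1.18) and Grin2a (-1.60), the L-type calcium channel gene Cacna1c (-0.97), the calcium/calmodulin kinase genes Camk4 (-1.10), Camk1 (-0.52), Camk2b (-0.69) and Camk2d (-0.51) and the SRF coactivator gene Mkl1 (-0.59). Between the fractions, 11 of the 34 tested were lower in non-RGC cells and 1, the CREB coactivator gene Crtc2 (0.37), was higher (median -0.19). The 8 with the smallest adjusted p were Camk4 (-1.11), Mef2a (-0.52), Camk2a (-1.89), the ribosomal S6 kinase gene Rps6ka1 (-0.79), Grin2b (-1.79), Mef2c (-3.32), Grin1 (-1.56) and Camk2b (-0.56), with limma adjusted p between 0.008825 and 0.01838. Several of these genes are also expressed by neurons in general or by microglia, whose markers differ between the fractions. The counts of the lists in mutant against WT RGCs fell to 0 for all 3 lists without WT library 1 or 2 or without mutant RGC library 2 or 3, and in the comparison of fractions the pathway list kept 1 call without non-RGC library 1.

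Of 7 dimerisation partners, Arnt (log2 0.59) and the retinoid receptor gene Rxra (0.76), whose products pair with Npas4 and with Nr4a1 and Nr4a2, rose in mutant RGCs, and the AP-1 partner gene Jdp2 (-0.52) fell. The related Arnt2 (-0.48) and Rxrg (-0.36) pointed the other way and did not pass, nor did Rxrb (0.005) and Batf3 (0.82). In WT RGCs Arnt2 stood at 3895 ± 428 normalised counts and Arnt at 810 ± 70.4 (SD, n = 3 each). Those that did not pass were named after their values were seen. Between the fractions Rxrg (-0.52) was lower in non-RGC cells. Of 11 chaperone genes that dissociation and heat induce, Hspb1 (log2 -1.64, limma adjusted p = 0.0304) and Hspa8 (-0.70, limma adjusted p = 0.0125) fell in mutant RGCs and none rose, with a median of -0.11. WT library 3 was lowest of the WT libraries for Hspb1, at 78.9 against 169 and 190.5 normalised counts. It was also lowest for Hspa1a, at 98.6 against 437 and 644, and Hspa1b, at 194 against 799 and 1022, genes that did not pass and are named after their values were seen. Among the other chaperones it was lowest for Hsp90aa1, Hsph1, Hspe1 and Dnaja1 and between the other WT libraries for Hspd1. It was highest of WT for Hspa8 (1546 against 1458.5 and 1532.5), Hspa5 (3055 against 2511 and 2713) and Dnajb1. The same library was lowest for Npas4, Nr4a1, Nr4a2, Nr4a3 and Fosl2, and highest for Fos, Fosb, Junb, Egr1 and Arc. Between the fractions 1 of 11, Hspb1 (-1.34), was lower in non-RGC cells. The part of handling in the values of the 10 genes was not tested.

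**Figure D5:**
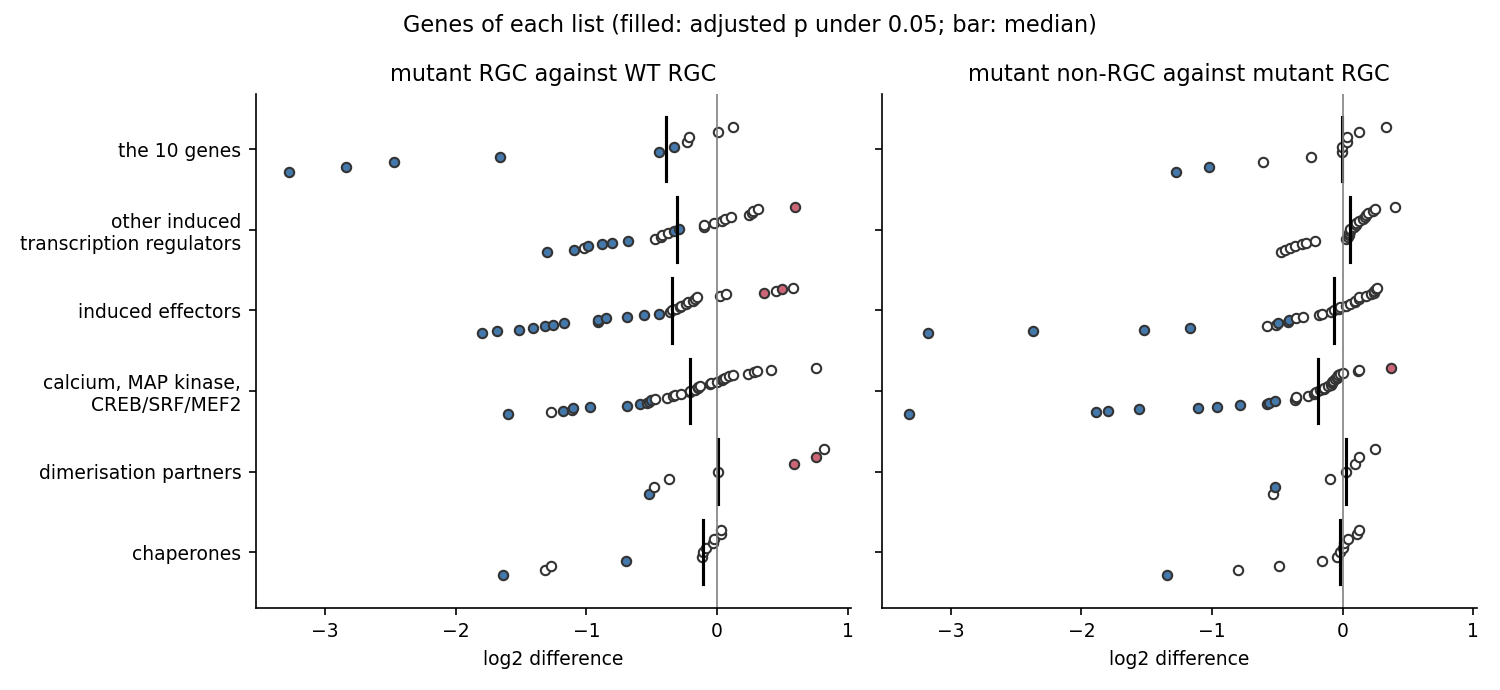
Log2 differences (horizontal, same axis in both panels) of the tested genes of each list, for mutant against WT RGCs (left) and mutant non-RGC cells against mutant RGCs (right). Filled points passed at a limma adjusted p under 0.05 (blue lower, red higher), and black bars are medians, which run from -0.39 to 0.005 at the left.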

How the data were processed

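Poly(A) RNA was read in 75 single-end cycles, aligned with STAR 2.3 to mm10 and counted with featureCounts, and DESeq and FastQC are also named, per the submitters' processing notes. Whether counting used strand is not stated in these sources. The authors deposited 2 tables of DESeq output, each with mean normalised counts per group (a signal with no spread), a fold change (ratio), a log2 fold change and p-values, so the libraries behind each mean are not shown. The deposited means keep enough digits for whole reads per library to be recovered, since each is a sum of whole numbers times 3 steps. This succeeded for 23538 of 23544 genes in WT RGCs, 23953 of 23955 in mutant RGCs and 23451 of 23451 in mutant non-RGC cells, and the 2 tables gave the same mutant RGC counts for 23953 genes. The 6 genes not solved (Ank2, Kif1b, Reln, Adcy1, Map1b and Dync1h1) were left out. Genes at 0 tied the unnamed conditions of the tables to the groups.

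Size-factor normalised counts were tested as log2(value + 1) in limma 3.58.1 (R 4.3.3) with a variance trend, keeping genes whose average across the 6 compared libraries reached 10, with Benjamini-Hochberg adjustment over all genes and a threshold of 0.05. Fold changes are on that scale, which understates those of low genes. The test and the recovery were also run on simulated data. The simulated recovery left out the highest group means, which some of the 10 genes reach, and the simulated test set the same scatter for every gene. Libraries carry no replicate numbers. Members and gene lists were chosen with earlier results of these data known. Text names all 10 members, up to 8 called genes per list and comparison with the smallest adjusted p, and 4 markers, namely Thy1, Pou4f2, Mki67 and Cx3cr1. Other scalings, pseudocounts, filters, voom weights, the deposited calls and leaving out each library were tried. The other RNA and the chromatin samples were not analysed here.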

Additional observations from a re-analysis of the deposited data

How the results depend on the processing

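No paired analysis was possible because the columns carry no replicate numbers. Called genes of the whole table numbered 3971 between mutant and WT RGCs and 2590 between the fractions. They numbered 2112 and 1615 without the variance trend, and the deposited table calls 1635 between the fractions. Leaving out 1 library gave 3 to 6478 and 438 to 3325. Between the fractions limma called 770 genes higher and 1820 lower, and 1465 and 1598 with total-count scaling. Of the 10 genes, those lower in mutant RGCs went from 6 to between 0 and 6, and those lower in non-RGC cells from 2 to between 0 and 3, when 1 library was left out. Between the fractions 1 of the 10 was lower with voom weights, 0 without the variance trend and 1 in the deposited table.

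Small log2 differences changed sign. Arc between the RGC groups went from 0.01 to -0.0088 with upper-quartile scaling and -0.0407 in the deposited table, and between -0.15 and 0.28 with 1 library left out. Between the fractions, upper-quartile and total-count scaling moved Fos from -0.0041 to 0.0232 and 0.0621 and Fosb from -0.01 to 0.0202 and 0.059, and the deposited table has Fosb at 1e-04. With 1 library left out, Fos ran from -0.1026 to 0.0747, Fosb from -0.1031 to 0.0997, Junb from -0.0633 to 0.0955 and Nr4a2 from -0.051 to 0.1075. Depth limits Cx3cr1 in non-RGC cells and no member, since the lowest member count was 41 reads (Fosl2).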

Other observations

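Among 11929 genes with a mean of at least 50 normalised counts, the profile over the 9 libraries most like the mean standardised profile of Npas4, Nr4a3 and Fosl2 was that of Sik1 (Pearson r = 0.998 across libraries). It was followed by Mapre3, a microtubule end-binding gene, and Dzip1 (0.995 each), Plekha6 (0.993), and Relb, an NF-kappaB subunit gene, Slc25a22, a mitochondrial glutamate carrier gene, and Map3k12, which encodes the axon injury kinase DLK (0.992 each). Sik1 had 2836, 2632 and 2087 normalised counts in WT RGC libraries 1 to 3, 900.3, 1031 and 1156 in mutant RGCs and 765, 744 and 672 in non-RGC cells. Of the other members Nr4a1 followed the same profile (r = 0.986), Junb, Fos, Nr4a2 and Fosb did so less closely (0.773, 0.707, 0.597 and 0.583), and Arc (-0.46) and Egr1 (-0.683) ran the other way. These are descriptions of 9 libraries that fall into 3 groups and share each library's depth and scaling.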
